A study of Mus musculus with 8 samples.

Results

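The Gata and Foxa endoderm factors were followed across 8 RNA-seq libraries of mouse jejunal crypts, as the 6 rows of the deposited expression table whose gene symbol is Gata4, Gata5, Gata6, Foxa1, Foxa2 or Foxa3, out of 23951 rows in all. All 6 rows were present, and all 6 were among the 12084 genes that reached an FPKM of 1 in at least 2 libraries and were tested. FPKM is a level scaled to transcript length and to the number of fragments, so levels can be compared between genes. SMAD4KO_BRAF had 3 libraries, from mice labelled Smad4 f/f BRAF-V600E f/+. CDX2KO_BRAF had 2 libraries, labelled Cdx2 f/f BRAF-V600E f/+, and BRAF had 3 libraries, labelled BRAF-V600E f/+. Every group, the BRAF group included, thus carried the conditional activating V600E allele of the kinase gene Braf together with Villin-CreER(T2), a recombinase made in the intestinal epithelium and switched on by tamoxifen, so immune and mesenchymal cells in a library were not targeted. All mice received tamoxifen on 4 days in a row, and crypts were taken from the jejunum 1 day later with 3 mM EDTA and a 70 micron filter. Animal ages and numbers are not given in the labels, so the p-values below measure the spread between these libraries, which may be partly technical. Libraries are numbered 0 to 2 as in the deposited columns. By their Y-linked genes, library 0 of SMAD4KO_BRAF and of BRAF was male and the other libraries, both of CDX2KO_BRAF among them, female. SMAD4KO_BRAF and BRAF thus each held more than a single mouse.

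GATA factors are zinc finger proteins that bind GATA motifs, and FOXA factors are forkhead proteins that can bind their sites in closed chromatin and open it for other factors. Both families act from the earliest endoderm onward in the gut tube, liver and pancreas. In the mouse small intestine, Gata4 is expressed in duodenum and jejunum and falls off towards the ileum, and the jejunum needs it to keep jejunal genes on and ileal genes off. Gata6 is expressed along the whole intestine and in crypts, and Gata5 in more differentiated epithelium. Foxa1 and Foxa2 act in goblet and enteroendocrine cells in the mouse intestine, and Foxa3 is the third, less studied member in this tissue.

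The libraries were checked against their labels first. Smad4 had an FPKM of 10.7, 8.38 and 7.66 in SMAD4KO_BRAF libraries 0 to 2, against 42.5, 47.0 and 42.4 in BRAF, and fell by 2.19 ± 0.13 (SE) on the log2(FPKM + 1) scale (limma, adjusted p = 0.00163). Cdx2, a homeobox gene that specifies intestine, went against its label, with 155 and 121 in the libraries labelled CDX2KO_BRAF, against 64.2, 82.6 and 80.1 in BRAF (difference 0.86, adjusted p = 0.0213). A level summed over a gene cannot show whether its floxed part was lost, so all that follows on these libraries takes their label as given. In the same libraries Isx, a homeobox gene known to be switched on by Cdx2, was at 2.03 and 2.37, against 73.3, 63.6 and 79.4 in BRAF (difference -4.51, adjusted p = 8.69e-06). The 12 epithelial and crypt markers, Epcam, Vil1, Lgr5 and Lyz1 among them, were all above an FPKM of 1 in each of the 8 libraries. Of these 12, 2 were called lower and 0 higher in the libraries labelled CDX2KO_BRAF against BRAF, beside 7.21% and 6.89% of all tested genes. Against SMAD4KO_BRAF 3 were called lower and 0 higher, beside 5.01% and 6.6%. Differences from BRAF were above 0 for 8 of the 12, with a median of 0.26, against 0.02 over all tested genes. Krt18, Lgr5, Ascl2 and Mki67 lay higher in both labelled libraries than in all BRAF libraries, as did 25.7% of all tested genes. Epcam, Vil1, Lyz1 and Defa17 lay lower, and the share of all tested genes lying lower is not given here. At an unadjusted p under 0.05 (limma, either direction) stood 8 of the 12 and 28.8% of all tested genes. Lyz1, the lysozyme gene of Paneth cells, was at 891 and 259 in the labelled libraries, against 2070, 2350 and 2790 in BRAF (adjusted p = 0.0281, ended in 7 of 19 alternatives, at 0.0512 to 0.153, any BRAF library or CDX2KO_BRAF library 1 left out among them). Vil1, the villin gene of the brush border whose promoter drives the Cre, was at 380 and 346, against 862, 610 and 618 in BRAF (adjusted p = 0.0494, ended in 9 of 19 alternatives, at 0.0617 to 0.225, any single BRAF or labelled library left out among them). Against SMAD4KO_BRAF the lower markers were Lyz1 (adjusted p = 0.0114, and 0.0681 without CDX2KO_BRAF library 1 and 0.0693 with no filter), the Paneth cell defensin gene Defa17 (0.0341) and the stem cell gene Lgr5 (0.0342), and the calls of Defa17 and Lgr5 each ended in 8 of 19 alternatives, at 0.0522 to 0.155 and 0.0522 to 0.187. Lgr5 was at 3.03 and 2.44 in the labelled libraries, 5.19, 5.88 and 6.72 in SMAD4KO_BRAF and 1.48, 2.35 and 1.26 in BRAF. Its difference of 1.38 between SMAD4KO_BRAF and BRAF was not called (limma, adjusted p = 0.0901). Summed over 10 immune markers, SMAD4KO_BRAF had an FPKM of 55.0 to 507 and the libraries labelled CDX2KO_BRAF had 16.6 and 73.3. BRAF had 37.1 to 1060, with BRAF library 1 highest. None of the 10 was at 0 in any library. The sum of 12 mesenchymal markers was 11.1 to 39.8, 4.44 and 13.2, and 9.58 to 84.7 in the same 3 groups, again highest in BRAF library 1, and Foxl1, a marker of the mesenchyme under the crypts, was at 0 in every library but that one. Such cells can change a bulk level without any change in the epithelium, and in bulk RNA fewer cells of a type and less RNA per cell cannot be told apart.

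The 6 factors were not expressed alike. In BRAF crypts Gata4 was the most abundant, with a mean FPKM of 52.6 ± 8.60 (SD, n = 3), followed by Gata6 at 31.0 ± 4.39 and Gata5 at 27.1 ± 7.94. The Foxa genes were lower, with Foxa1 at 11.9 ± 1.44, Foxa3 at 9.97 ± 0.390 and Foxa2 at 1.88 ± 0.180. Gata4 lay above Gata5 and Gata6 in every library of every group, and Foxa2 lay below all the others. The neighbours Gata5 and Gata6 overlapped in all 3 groups and changed places between libraries of SMAD4KO_BRAF and of BRAF. Foxa1 and Foxa3 overlapped in SMAD4KO_BRAF and not in the other groups. In the libraries labelled CDX2KO_BRAF the order itself was different. There Foxa1 stood second, above Gata5 and Gata6 in both libraries, while in all 6 other libraries it stood below both.

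**Figure D1:**
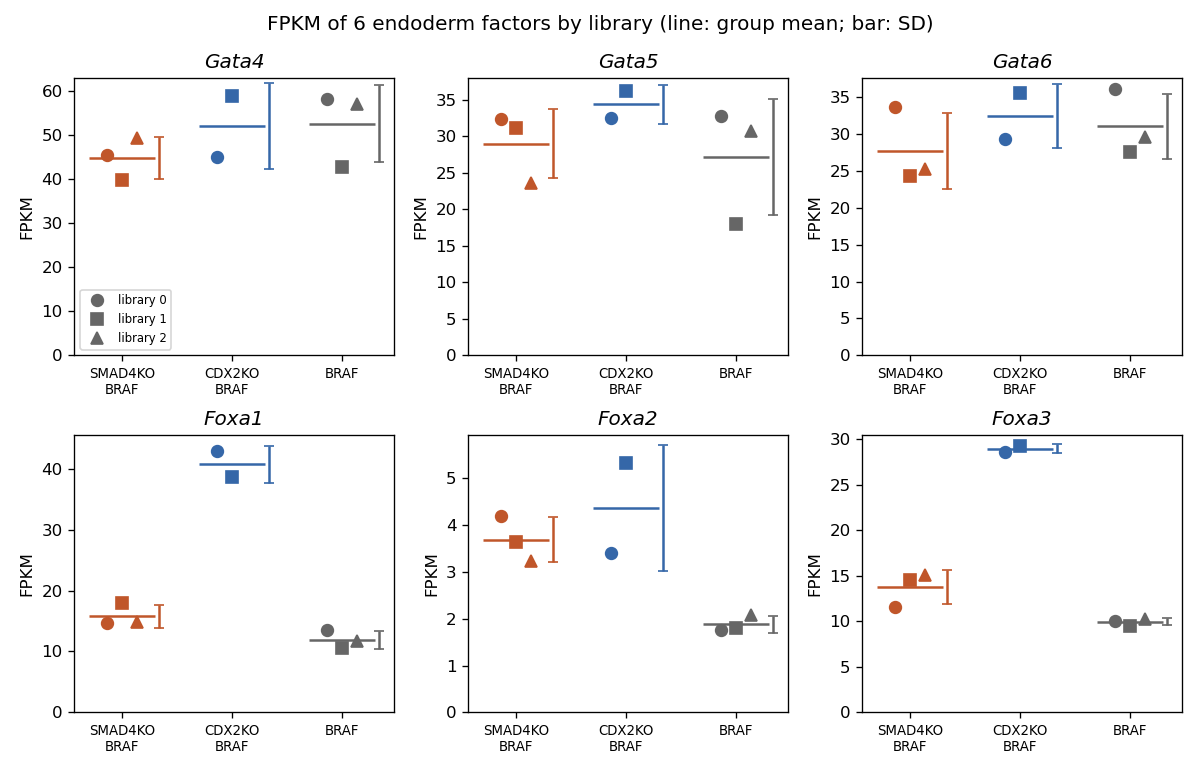
FPKM (vertical axes, from 0) of the 6 factors in SMAD4KO_BRAF (n = 3), CDX2KO_BRAF (n = 2) and BRAF (n = 3). Each point is a library, with its shape giving the library's number, each line a group mean and each bar its SD. Foxa1 lies at 42.9 and 38.6 in the libraries labelled CDX2KO_BRAF and between 10.6 and 17.9 in all others, while each Gata gene overlaps between CDX2KO_BRAF and BRAF.

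Set against BRAF, the libraries labelled CDX2KO_BRAF address the effect of losing Cdx2 on top of the activated kinase, and there all 3 Foxa genes rose while no Gata gene passed the test. The Paneth cell and brush border markers Lyz1 and Vil1 were lower in the same libraries, while 8 of the 12 markers had differences above 0. The part of these cell types in the Foxa values was not tested. Of the 6 factors 3 were called higher and 0 lower in this comparison, with 6.89% of all tested genes called higher and 7.21% called lower. Foxa1, Foxa2 and Foxa3 also lay higher in both labelled libraries than in all 3 BRAF libraries, as did 25.7% of all tested genes.

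Foxa1 had an FPKM of 42.9 and 38.6 in the libraries labelled CDX2KO_BRAF, against 13.5, 10.6 and 11.7 in BRAF libraries 0 to 2. Both labelled libraries lay far above the range of BRAF, and the ratio of the group means was 3.42. The difference was 1.70 ± 0.14 on the log2 scale (95% interval 1.36 to 2.03, limma, adjusted p = 0.000886), with the 65th smallest p of the 12084 genes. Foxa3 was almost as different, at 28.6 and 29.3 in the labelled libraries, against 10.1, 9.54 and 10.3 in BRAF. Libraries of the same group lay close together, and the ratio of the means was 2.90. The difference was 1.45 ± 0.13 (1.15 to 1.75, adjusted p = 0.00102). Both calls held in each of 19 alternative analyses, with differences of 1.62 to 1.78 for Foxa1 and 1.38 to 1.53 for Foxa3.

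Foxa2, the member needed first in the embryo, for the notochord and foregut endoderm of the mouse, was at 3.41 and 5.32 in the libraries labelled CDX2KO_BRAF, against 1.75, 1.81 and 2.09 in BRAF. All these levels were low, with the mean over 8 libraries above only 18.3% of tested genes. The difference was 0.87 ± 0.19 (0.43 to 1.31, adjusted p = 0.0241). This call was less steady than the other two. It ended without BRAF library 0 (adjusted p = 0.0636), BRAF library 1 (0.0573), BRAF library 2 (0.0537) or CDX2KO_BRAF library 1 (0.156, difference 0.62). It also ended with no filter (0.0542), with only these groups in the fit (0.0520) and with a block for the column number (0.0736).

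Gata4 was at 45.0 and 58.8 in the libraries labelled CDX2KO_BRAF, against 58.0, 42.6 and 57.0 in BRAF. The groups overlapped, and the difference was -0.02 with a 95% interval of -0.45 to 0.42 (adjusted p = 0.964). Gata6 was at 29.3 and 35.5 in the labelled libraries, against 36.0, 27.6 and 29.5 in BRAF, again with overlap (difference 0.06, interval -0.37 to 0.50, adjusted p = 0.841). Gata5 was at 32.5 and 36.2 in the labelled libraries, against 32.7, 18.0 and 30.7 in BRAF. BRAF library 1 set most of that difference of 0.37 (interval -0.24 to 0.98, adjusted p = 0.394), and without it the difference was 0.11. That library also had the highest sums of immune and mesenchymal markers, whose part in its low Gata5 level was not tested. The intervals of all 3 Gata genes ended below those of Foxa1 and Foxa3 began.

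The promoters of Foxa1 and Foxa3, the members that moved most, are shown to let their sequence be read beside their levels. RefSeq promoter windows were in the mouse build GRCm38.p6, which is not the build of the expression table. They were matched by symbol for 4 of the 6 genes and not for Gata4 and Gata6. Windows on 1 chromosome were left out of this matching, so a gene without a window here may still have one in RefSeq. The 250 bases before the start are given 5′ to 3′ on the gene's strand, the minus strand in both, at chr12:57546112-57546361 for Foxa1 and chr7:19023540-19023789 for Foxa3. Capitals mark the only matches to the motifs searched.
Foxa1: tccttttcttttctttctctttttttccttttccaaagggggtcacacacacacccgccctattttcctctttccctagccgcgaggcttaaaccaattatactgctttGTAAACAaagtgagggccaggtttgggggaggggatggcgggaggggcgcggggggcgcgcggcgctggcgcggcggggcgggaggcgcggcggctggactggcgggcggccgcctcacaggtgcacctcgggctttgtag
Foxa3: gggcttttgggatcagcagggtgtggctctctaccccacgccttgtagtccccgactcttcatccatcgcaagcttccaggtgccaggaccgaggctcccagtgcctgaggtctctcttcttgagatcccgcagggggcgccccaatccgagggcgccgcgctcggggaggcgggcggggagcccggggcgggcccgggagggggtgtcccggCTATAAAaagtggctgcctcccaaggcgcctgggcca
Searched on both strands of 300-base windows, from 250 bases before to 50 after the start, were the forkhead motif TGTTTAC, the GATA motif AGATAA, the CDX motif TTTATNG, the palindromic SMAD motif GTCTAGAC and the TATA box TATAAA. Foxa1 held 1 forkhead motif, in reverse as GTAAACA from 141 to 135 bases before the start, and this motif occurs in 3.65% of 32851 windows. Foxa3 held 1 CDX motif in reverse, CTATAAA, from 37 to 31 bases before the start, and 10.9% of windows have one. Of its 7 bases 6 are also the TATA box, which 13.6% of windows hold. The single Gata5 window held no match, and 1 of the 3 Foxa2 windows held a GATA motif and a TATA box. Foxa1 and Gata5 had 26 CpG pairs each, Foxa3 had 22 and the 3 Foxa2 windows had 12, 23 and 13, against a median of 7 over all windows. Of all windows 83.1% had fewer than 26 and 76.9% fewer than 22. These matches describe letters only, and binding was not measured.

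SMAD4KO_BRAF against BRAF addresses the loss of Smad4, the partner of the receptor-regulated SMADs, in the same setting. None of the 6 factors passed, in a comparison in which limma called 0.0745% of all tested genes. At an unadjusted p under 0.05 stood 3 factors, the Foxa genes, and 15.1% of all tested genes. Foxa2 was at 4.20, 3.63 and 3.24 in SMAD4KO_BRAF, against 1.75, 1.81 and 2.09 in BRAF. The groups did not overlap, and the ratio of the means was 1.96. The difference was 0.70 ± 0.17 (interval 0.31 to 1.09, adjusted p = 0.188). Foxa3 was at 11.6, 14.6 and 15.1 in SMAD4KO_BRAF, against 10.1, 9.54 and 10.3 in BRAF, a difference of 0.43 ± 0.12 (0.16 to 0.70, adjusted p = 0.221). It passed in 1 of 19 alternatives, with library weights (0.0381), a setting under which 1069 genes passed in place of 9. Foxa1 was at 14.6, 17.9 and 14.8 in SMAD4KO_BRAF, against 13.5, 10.6 and 11.7 in BRAF, a difference of 0.38 ± 0.13 (0.08 to 0.67, adjusted p = 0.279). All 3 Foxa genes thus lay higher in every SMAD4KO_BRAF library than in every BRAF library, as did 8.99% of all tested genes, without passing the test.

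The Gata genes overlapped between SMAD4KO_BRAF and BRAF. Gata4 was at 45.5, 39.7 and 49.2 in SMAD4KO_BRAF, against 58.0, 42.6 and 57.0 in BRAF (difference -0.22, interval -0.61 to 0.17, adjusted p = 0.536). Gata6 was at 33.6, 24.3 and 25.2 in SMAD4KO_BRAF (difference -0.16, interval -0.55 to 0.22, adjusted p = 0.636). Gata5 was at 32.3, 31.1 and 23.6 in SMAD4KO_BRAF (difference 0.12, interval -0.42 to 0.67, adjusted p = 0.819), and its sign turned without BRAF library 1 (-0.14).

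**Figure D2:**
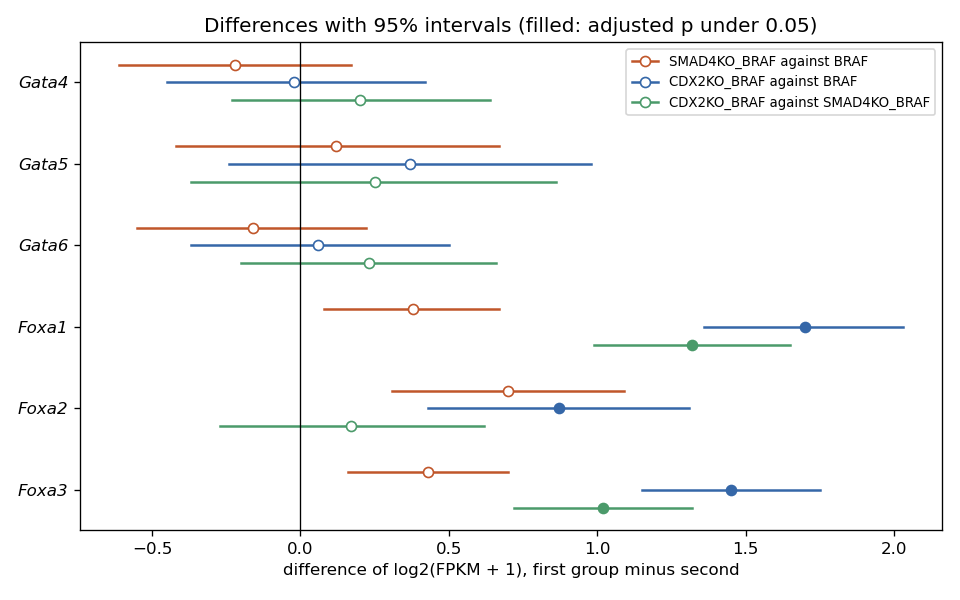
Difference of log2(FPKM + 1) for each factor in the 3 comparisons (horizontal axis, first group minus second), with 95% intervals from limma and filled points where the adjusted p is under 0.05. Foxa1 and Foxa3 are filled in both comparisons of CDX2KO_BRAF, Foxa2 in the one with BRAF, and all 9 intervals of the Gata genes include 0.

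Both comparisons above share the BRAF libraries, so the libraries labelled CDX2KO_BRAF and SMAD4KO_BRAF were also compared directly. Foxa1 and Foxa3 rose in the libraries labelled CDX2KO_BRAF against SMAD4KO_BRAF, and the other 4 factors did not pass, where 6.6% of all tested genes were called higher and 5.01% lower. Foxa1 differed by 1.32 ± 0.14 (interval 0.99 to 1.65, limma, adjusted p = 0.00243) and Foxa3 by 1.02 ± 0.13 (0.72 to 1.32, adjusted p = 0.00446). The Foxa3 call ended without CDX2KO_BRAF library 1 (adjusted p = 0.0525, difference 1.005). For Foxa2 the values of 3.41 and 5.32 in the labelled libraries overlapped those of 4.20, 3.63 and 3.24 in SMAD4KO_BRAF, and the difference was 0.17 (interval -0.27 to 0.62, adjusted p = 0.577). Without CDX2KO_BRAF library 1 its sign turned (-0.08). The Gata genes were at 0.20, 0.25 and 0.23 for Gata4, Gata5 and Gata6 (adjusted p 0.454 to 0.574). Gata5, Foxa1 and Foxa3 lay higher in both labelled libraries than in all of SMAD4KO_BRAF, Gata5 by the narrow margin of 32.5 over 32.3, and 25.1% of all tested genes did so.

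Added up, the Foxa genes took a larger part of the 6-factor total in the libraries labelled CDX2KO_BRAF. SMAD4KO_BRAF libraries had 21.5, 27.6 and 25.3% of the summed FPKM in Foxa genes, those labelled CDX2KO_BRAF had 41.2 and 35.9%, and BRAF had 16.6, 19.9 and 17.1%, and the 3 ranges did not touch. The summed Gata FPKM was 95.1 to 111 in SMAD4KO_BRAF, 107 and 130 in the labelled libraries and 88.3 to 127 in BRAF, which overlap. Within the Foxa sum, Foxa1 made up 44.6 to 49.5% in SMAD4KO_BRAF, 52.7 and 57.3% in the labelled libraries and 48.3 to 53.2% in BRAF. Within the Gata sum, Gata4 made up 40.9 to 50.2%, 42.2 and 45.0%, and 45.8 to 48.7% in the same order.

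**Figure D3:**
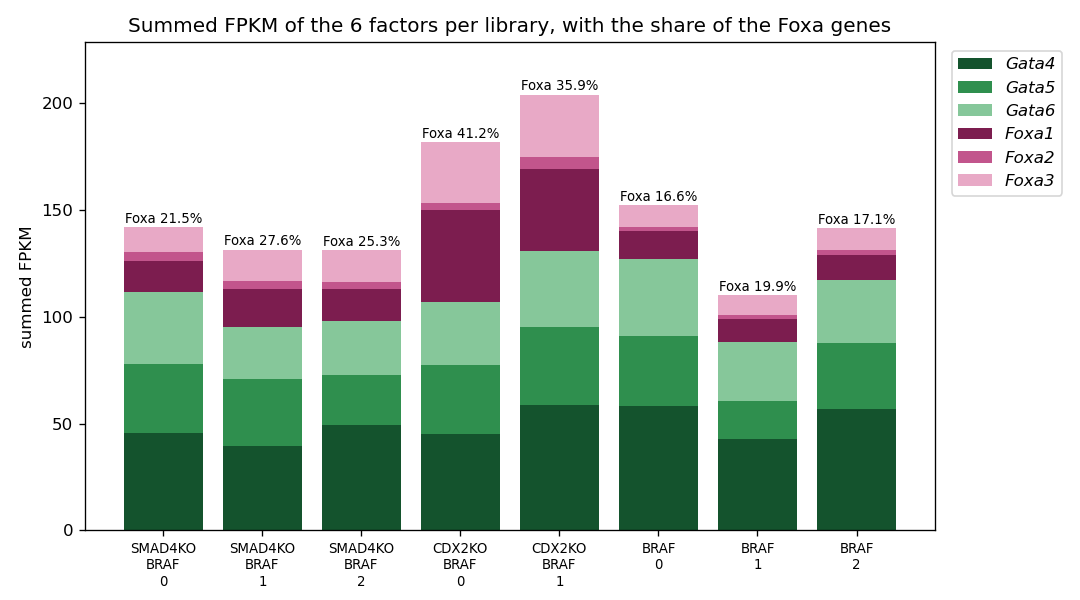
Summed FPKM of the 6 factors in each library (vertical axis), stacked by gene, with the share of the Foxa genes written above each bar. That share is 41.2 and 35.9% in the libraries labelled CDX2KO_BRAF and at most 27.6% in the other 6.

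Other members of both families and their cofactors were read beside the 6 factors. The haematopoietic genes Gata1, Gata2 and Gata3 did not reach an FPKM of 0.4 in any library, and the cofactor gene Zfpm2 and the atypical GATA gene Trps1 stayed below 0.2. Zfpm1, which encodes the GATA partner FOG1, was at 38.9 and 41.6 in the libraries labelled CDX2KO_BRAF, against 25.7, 11.4 and 22.8 in BRAF and 22.3, 19.2 and 23.6 in SMAD4KO_BRAF. Both labelled libraries were the highest of the 8, yet the difference from BRAF of 1.05 ± 0.31 missed the threshold (adjusted p = 0.0649). Library weights (0.0350) or the absence of BRAF library 0 (0.0468) or 1 (0.0279, difference 0.71) brought it under, and the alternatives spanned 0.0279 to 0.238. Of 9 other GATA genes and cofactors 4 were tested, and 0 were called in each of the 3 comparisons by limma, with 0, 2 and 2 at an unadjusted p under 0.05 in SMAD4KO_BRAF against BRAF, CDX2KO_BRAF against BRAF and CDX2KO_BRAF against SMAD4KO_BRAF. At that level stood 3 and 2 of the 6 factors in the last pair of comparisons, and 28.8% and 28.9% of all tested genes.

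Of 41 forkhead genes other than the Foxa genes, 13 were expressed enough to be tested. Their median difference was 0.25 in the libraries labelled CDX2KO_BRAF against BRAF, where it was 0.02 over all tested genes. Of the 13, 1 was called higher and 0 lower there, beside 6.89% and 7.21% of all tested genes. That gene was Foxp4, a repressor of the FOXP group, at 34.8 and 40.0 in the labelled libraries, against 20.6, 23.7 and 22.5 in BRAF (difference 0.72, adjusted p = 0.00738, and 0.0743 without CDX2KO_BRAF library 1). Foxq1, known for its part in gastric mucous cells of the mouse, was at 17.0 and 30.0 in the labelled libraries, against 5.09, 7.26 and 1.93 in SMAD4KO_BRAF and 9.10, 3.07 and 8.08 in BRAF. It was called against SMAD4KO_BRAF (2.16, adjusted p = 0.0466, ended in 11 of 19 alternatives, at 0.0540 to 0.227, among them those without library 0 or 2 of BRAF or of SMAD4KO_BRAF or either labelled library) and not against BRAF (1.71, 0.0839). Among all 16 tested forkhead genes, Foxq1, Foxa1, Foxa3 and Foxa2 had the largest increases against BRAF, in that order. In SMAD4KO_BRAF 0 of the 13 were called by limma, with a median difference of 0.00. At an unadjusted p under 0.05 stood 3 of the 13 and 15.1% of all tested genes.

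**Figure D4:**
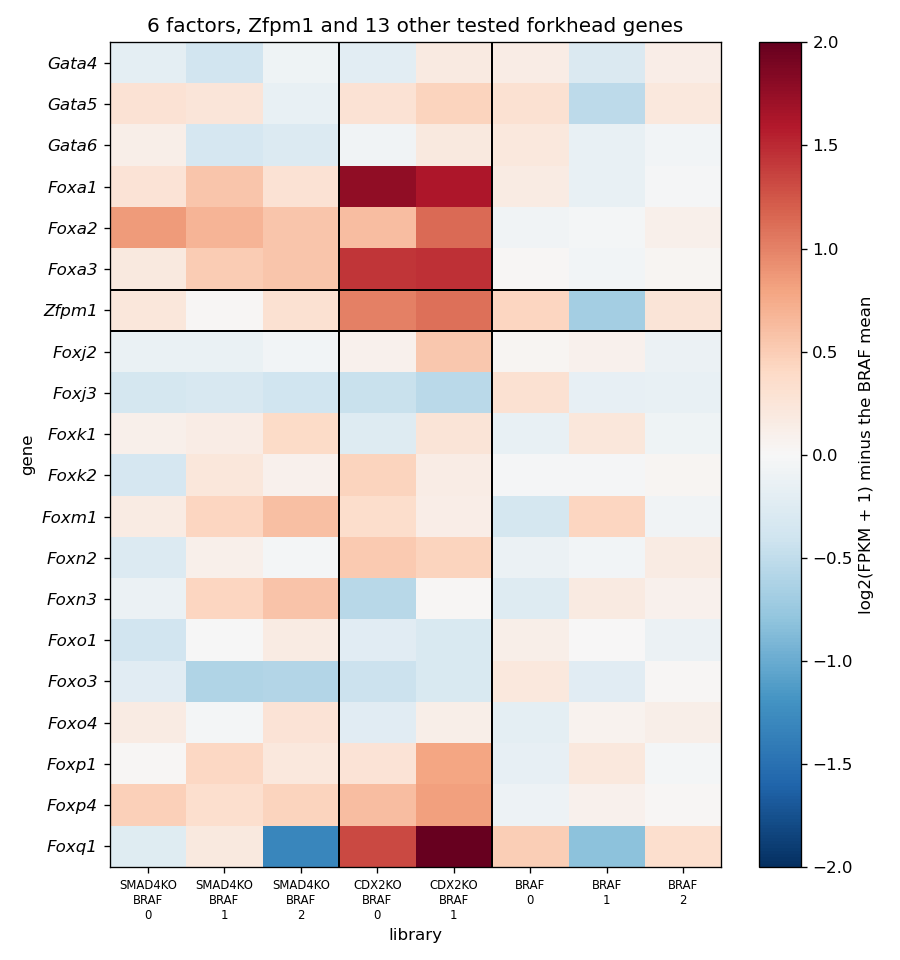
Colour gives how far each library (columns) lies from the mean of BRAF in log2(FPKM + 1), for the 6 factors, Zfpm1 and 13 other tested forkhead genes (lines). The scale ends at 2 in either direction, and larger values take its last colour. Foxa1 and Foxa3 are dark red in both libraries labelled CDX2KO_BRAF, the Gata lines are paler, and Foxq1 varies within groups.

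Genes on which these factors are known to act, and other factors of gut identity, were read from lists. Among 16 tested gut identity factors 2 rose and 3 fell in libraries labelled CDX2KO_BRAF against BRAF, beside 6.89% and 7.21% of all tested genes. In SMAD4KO_BRAF against BRAF 0 were called by limma, and 3 had an unadjusted p under 0.05, beside 15.1% of all tested genes. Hnf4g and Hnf4a, nuclear receptors that drive enterocyte genes, fell by 2.84 (adjusted p = 0.000359) and 0.91 (adjusted p = 0.00915, and 0.0518 and 0.0923 without CDX2KO_BRAF library 0 or 1, and 0.0655 with quantile normalization) in the labelled libraries. Klf4, a factor of post-mitotic epithelium, was at 90.7 and 104 in the labelled libraries, against 49.8, 34.8 and 28.8 in BRAF (difference 1.37, adjusted p = 0.0131, and 0.0640 and 0.102 without CDX2KO_BRAF library 0 or 1). In SMAD4KO_BRAF Klf4 was at 16.9, 14.9 and 11.4, and its difference from BRAF of -1.31 was not called (limma, adjusted p = 0.139). Pdx1, the homeobox factor of pancreas, antrum and duodenum, was at 3.53 and 5.05 in the labelled libraries. Pdx1 was at 0.757, 0.357 and 0.262 in SMAD4KO_BRAF and 1.63, 0.245 and 1.21 in BRAF. Its call against BRAF (difference 1.44, adjusted p = 0.0342) ended in 8 of 18 alternatives, at 0.0531 to 0.202, among them those without BRAF library 2, SMAD4KO_BRAF library 1 or either labelled library. Its call against SMAD4KO_BRAF (difference 1.86, adjusted p = 0.0162) ended without SMAD4KO_BRAF library 2 (0.0505) or CDX2KO_BRAF library 0 (0.0739) or 1 (0.124), and with a block for the column number (0.0523). Sox2, the factor of the foregut and stomach, and Barx1 were listed at 0 in all 8 libraries.

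Jejunal and ileal genes are kept apart by Gata4 in the mouse. Of 12 tested jejunal absorptive genes 7 fell, 0 rose and 5 did not pass in the libraries labelled CDX2KO_BRAF against BRAF. Of all tested genes 7.21% were called lower there, and the median was -1.74 for the 12 and 0.02 for all. Sis, the sucrase gene, was at 3.71 and 2.85 in the labelled libraries, against 755, 368 and 508 in BRAF (adjusted p = 0.000482). Lct, the lactase gene, was at 0.494 and 0.0721, against 76.4, 55.3 and 35.6 (adjusted p = 0.00181). Apob, the apolipoprotein B gene, overlapped between the groups, at 265 and 189 in the labelled libraries, against 658, 204 and 265 in BRAF (adjusted p = 0.560). Of 5 ileal genes 3 fell and 2 did not pass, with Slc51a, a subunit of the bile acid exporter, at 11.8 and 7.33 in the labelled libraries, against 117, 99.7 and 107 in BRAF (adjusted p = 0.00323). Fabp6, the ileal bile acid binding protein gene, was at 2.93 and 2.31 in the labelled libraries, against 71.7, 1080 and 226 in BRAF, and its call (adjusted p = 0.0343) ended in 7 of 19 alternatives, at 0.0662 to 0.165, among them those without BRAF library 1 or 2 or either labelled library. In SMAD4KO_BRAF 0 of the 12 jejunal and 0 of the 5 ileal genes were called by limma, with medians of -0.93 and -1.49. At an unadjusted p under 0.05 stood 6 and 3 of them, and 15.1% of all tested genes.

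Gastric epithelium expresses Foxa and Gata genes without Cdx2, and 12 gastric genes were listed, of which 8 were tested. Tff2, Pgc and Cldn18 reached that filter only through the libraries labelled CDX2KO_BRAF, so that a count over the tested genes partly follows from the filter. In the labelled libraries 7 of the 8 were called higher against BRAF, beside 6.89% of all tested genes, and Anxa10 was not (adjusted p = 0.237). Untested were Tff1, listed at 0 in all 8 libraries, Muc5ac, at 0.00435 and 4.02 in the labelled libraries, Muc6, at 0.284 and 1.77, and Gif, at 0.194 and 0.928. Tff2, a trefoil factor gene of gastric mucous neck cells, was at 1260 and 2320 in the labelled libraries, against 0.346, 0.326 and 1.37 in BRAF (adjusted p = 2.14e-05). Cldn18, a tight junction gene of the stomach, was at 86.7 and 248, against 0.731, 0.0259 and 0.151 (adjusted p = 0.000337). In SMAD4KO_BRAF 0 of the 8 were called by limma, beside 0.0745% of all tested genes. At an unadjusted p under 0.05 stood 0 of the 8 and 15.1% of all tested genes. Differences were above 0 for 1 of the 8, with a median of -0.26. The gastrokine gene Gkn3, not on the list, was at 7.06, 18.1 and 8.86 in SMAD4KO_BRAF. In BRAF it was at 3.1, 2.05 and 3.28 (difference 1.61, limma, adjusted p = 0.179).

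Secretory genes linked to Foxa1 and Foxa2 in the mouse intestine did not move as one. Of 11 tested, 0 rose and 2 fell in the libraries labelled CDX2KO_BRAF against BRAF, beside 6.89% and 7.21% of all tested genes. Neurog3, the factor that starts the enteroendocrine lineage, was at 0.381 and 0.0372 in the labelled libraries, against 1.95, 2.36 and 2.17 in BRAF (adjusted p = 0.0134, and 0.108 without CDX2KO_BRAF library 1). Chgb, a granin gene of enteroendocrine cells, fell by 1.52 (adjusted p = 0.0361), a call that ended in 7 of 19 alternatives, at 0.0593 to 0.204, among them those without any single BRAF or labelled library. Muc2, the goblet mucin gene, was at 151 and 121 in the labelled libraries, against 229, 249 and 208 in BRAF (adjusted p = 0.0897), while Spdef, a goblet factor, was at 39.9 and 25.6, against 15.0, 13.9 and 18.1 (adjusted p = 0.0914). Of 8 genes that FOXA factors bind in the liver only 3 were tested, since Alb, Afp, Tat and Apoh stayed below an FPKM of 1 and Igfbp1 was listed at 0. Ttr, the transthyretin gene and a classical FOXA target, was at 117 and 42.7 in the labelled libraries, against 11.9, 4.22 and 6.62 in BRAF (difference 3.17, adjusted p = 0.0198). Leaving out BRAF library 1 (0.0501) or 2 (0.0591), or CDX2KO_BRAF library 0 (0.135) or 1 (0.0508), ended that call. Pck1, the gluconeogenic enzyme gene, fell to 1.36 and 3.33 in the labelled libraries, against 19.2, 91.2 and 67.2 in BRAF (adjusted p = 0.0170), and this call ended without BRAF library 2 (0.0545) or either labelled library (0.117 and 0.0802).

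**Figure D5:**
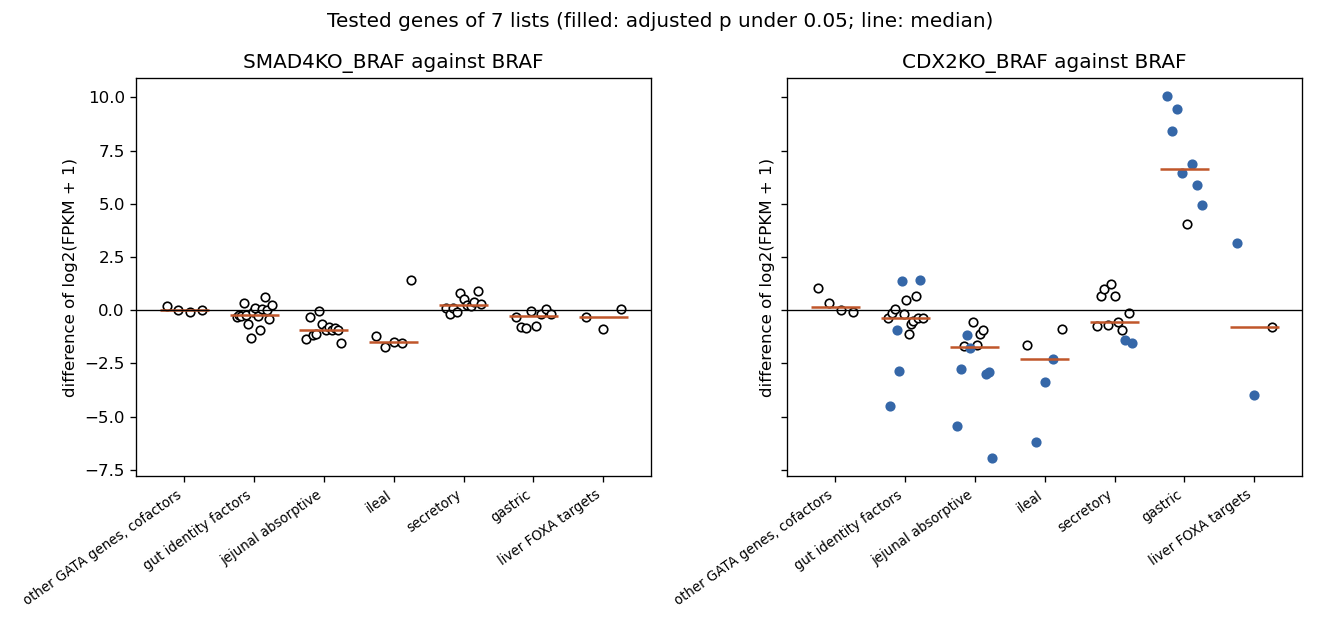
Differences of log2(FPKM + 1) (vertical axes) for the tested genes of 7 lists in SMAD4KO_BRAF against BRAF (left) and CDX2KO_BRAF against BRAF (right), with filled points where the adjusted p is under 0.05 and a line at each median. On the right 7 of 8 gastric points are filled and lie above 0, filled jejunal and ileal genes lie below 0, and the left panel has no filled point.

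The genes whose levels over the 8 libraries were most like each factor's were found by Pearson's r of log2(FPKM + 1) among 12083 tested genes, as a description of libraries that share their groups. For Foxa1 these were the vesicle-traffic gene Nbea (0.992), the semaphorin gene Sema3c (0.987) and the tryptophan-tRNA ligase gene Wars (0.986). The mean FPKM of Sema3c was 3.00 for SMAD4KO_BRAF, 18.6 for the libraries labelled CDX2KO_BRAF and 2.12 for BRAF. For Foxa3 they were the sorting nexin gene Snx10 (0.989), Pstk (0.988) and the gastrokine gene Gkn3 (0.987), the last with means of 11.3 in SMAD4KO_BRAF, 174 in the labelled libraries and 2.81 in BRAF. For Foxa2 they were Tnip2 (0.980), the sugar transporter gene Slc50a1 (0.976) and Samd10 (0.963). For the Gata genes they were Trpc4ap (0.934), Pgm2 (0.932) and Ak3 (0.921) for Gata4, Fhl2 (0.976), Med21 (0.973) and Kcnk1 (0.952) for Gata5, and Tcf25 (0.992), P2rx4 (0.988) and Tmem220 (0.968) for Gata6. Of these 9 genes 0 were called by limma in the libraries labelled CDX2KO_BRAF against BRAF. Fhl2 and Kcnk1 lay higher in both labelled libraries than in all BRAF libraries, as did 25.7% of all tested genes. Of the 9 genes nearest to the Foxa genes 8 were called higher. In that comparison 6.89% of all tested genes were called higher and 7.21% lower. The ranking used these same libraries, so both counts partly follow from it and are no separate result.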

How the data were processed

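Messenger RNA of jejunal crypts was sequenced as 50 bp reads from 1 end of TruSeq v2 libraries, per the labels' protocols. The authors deposited 1 table of FPKM for 23951 gene symbols. The submitters' processing notes name TopHat2 2.1.0, Cuffnorm 2.2.1, Cuffdiff 2.2.1 and the build mm9, without saying which program made the table. The files hold no counts, so the depth is unknown and precision can be read only from how libraries of a group differ. The summed FPKM of a library was 431269 to 595547. Columns are numbered from 0 and sample titles from 1, so columns were matched to groups only, and 3 further columns were not used here.

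Genes below an FPKM of 1 in all libraries or in all but 1 were left out, and log2(FPKM + 1) of the other 12084 was fitted in 1 model of all 3 groups with limma 3.58.1 (R 4.3.3, mean-variance trend, two-sided). Benjamini-Hochberg adjustment ran over all tested genes, separately for the 3 comparisons, and an adjusted p under 0.05 counted as a call. The log2 scale with 1 added understates differences of genes at low FPKM. Lists are described by counts and medians. The members and lists were chosen with earlier results of these data known. The named genes are the 6 factors, the targeted genes, up to 4 genes with the smallest adjusted p per list and comparison, and the 3 genes most like each factor. Others named (markers, Gata1 to Gata3, Sox2, Alb, Apob, the untested gastric genes and the like) were chosen after their values were seen. Tried in turn were leaving out each of the 8 libraries, a block for the column number, a term for sex (2 libraries, number 0 of SMAD4KO_BRAF and of BRAF, were male by their Y-linked genes), weights per library, robust moderation, a fit with no trend or with only the 2 groups at hand, quantile and median-ratio scaling, 0.1 added in place of 1, and a filter at FPKM 5 or none. Tables and figures used Python 3.11.15 with pandas 2.3.3 and matplotlib 3.10.9.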

Additional observations from a re-analysis of the deposited data

How the results depend on the processing

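The number of the 6 factors called was 2 or 3 under all 19 alternatives for CDX2KO_BRAF against BRAF. It was 0 for SMAD4KO_BRAF against BRAF except with library weights, where it was 1 (Foxa3), and 2 for CDX2KO_BRAF against SMAD4KO_BRAF except without CDX2KO_BRAF library 1, where it was 1. Leaving out 1 library gave 2 to 3, 0 and 1 to 2 called factors in these comparisons. The log2 differences that changed sign belonged to values that did not pass the test, and the cause was not tested. In CDX2KO_BRAF against BRAF, Gata4 was at 0.050 with the replicate block and 0.0291 with sex as a term, and at -0.20 to 0.17 without 1 library, and Gata6 was at -0.0687 to 0.198 without 1 library. In SMAD4KO_BRAF against BRAF, Gata5 was at -0.15 with library weights and at -0.14 to 0.28 without 1 library, Zfpm1 at -0.16 to 0.399 and Cdx2 at -0.0113 to 0.17. In CDX2KO_BRAF against SMAD4KO_BRAF, Foxa2 was at -0.084 to 0.43 without 1 library.

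The Cdx2 rise against BRAF (adjusted p = 0.0213) ended without BRAF library 0 (at the threshold of 0.05) or 2 (0.0505) or CDX2KO_BRAF library 0 (0.146) or 1 (0.0616). Over all genes the calls numbered 9 in SMAD4KO_BRAF against BRAF (5 to 1069 over the alternatives, the highest with library weights), 1704 in CDX2KO_BRAF against BRAF (409 to 2602) and 1402 in CDX2KO_BRAF against SMAD4KO_BRAF (234 to 2447), the lowest of both without CDX2KO_BRAF library 1. A fit without 1 of the 2 labelled libraries assumes that the other varies like the other groups. Deviations of same-numbered columns correlated at -0.109 to 0.241, and those of differently numbered columns at -0.332 to 0.312. Deviations from the mean of so few libraries depend on each other, so these values cannot tell whether the numbers pair samples. The block for the column number ended the Foxa2 call (0.0736) and left those of Foxa1 and Foxa3, and calls over all genes numbered 10, 1181 and 805 with it. The minimum FPKM of 5 left Foxa2 untested. No counts are given, so what depth limits at the low level of Foxa2 is unknown.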
